A study of Mus musculus with 16 samples.

Results

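The 16 RNA-seq libraries of a mouse inner medullary collecting duct cell line were split by replicate number, replicates 3 and 4 (8 libraries) against replicates 1 and 2 (8 libraries), with all 16 of 16 libraries of the series used. The line models the inner medullary collecting duct, where the kidney makes its last adjustments to urine, and in it doxycycline (DOX) induces knockout of Pkd2, the gene of the cation channel polycystin-2. The titles name all 16 libraries as Pkd2 knockout cells, while the genotype label reads wild type in the 8 without DOX and knockout induced by DOX in the 8 with it. The 4 groups were passage 4 without DOX, passage 4 with DOX, passage 7 without DOX and passage 7 with DOX, each with replicates 1 to 4. In every group the cells stood on permeable filters for 10 days in an epithelial medium with 5% FBS, and DOX at 2 ug/mL was given for 6 days or left out. The labels name 1 cell line and do not give the promoter or cell type that drives the DOX switch. They do not say what a replicate number marks, nor that replicates are separate cultures, so the p-values below measure only the spread between these samples.

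Cultured cells keep a molecular clock, a feedback loop in which the activators CLOCK and BMAL1 switch on the Per and Cry repressors, which then shut the activators down. Medium changes, serum, glucocorticoids and temperature can all reset it. Cells also read temperature through cold-inducible RNA-binding proteins, metals through the factor MTF1, interferons through surface receptors, and oxygen through hypoxia-inducible factors, and each of these routes has a well-known set of transcripts.

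The split was chosen by the expression values themselves, the same counts in the same 16 libraries, so every difference between the pairs is a description and none is offered as a test. Differences are log2 values for replicates 3 and 4 minus replicates 1 and 2 from edgeR's fit with the 4 groups held constant, and levels are CPM, each count scaled to a common library total with TMM. A gene is said to be called where edgeR's Benjamini-Hochberg adjusted p was under 0.05, which here only marks a difference that is large against the spread. Of 15316 tested genes, 2673 (17.5%) were called higher and 2984 (19.5%) lower in replicates 3 and 4, or 36.9% in either direction. A difference of at least 2-fold was seen in 90 of the genes called higher and 38 of those called lower. The median over all genes was 0.00, and the middle 90% of genes lay between -0.41 and 0.42. In 935 genes (6.1%) both libraries of replicates 3 and 4 lay above both of replicates 1 and 2 in each of the 4 groups, and in 1340 genes (8.75%) they lay below. The 8 libraries of each pair did not overlap at all in 166 genes (1.08%) that were higher and 266 (1.74%) that were lower. The difference found in 1 group correlated across genes with that found in another, which has no library in common with it, with a Pearson r of 0.355 to 0.507. The split was chosen with all 4 groups in view, so this correlation is a description too.

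Total counts were 9937504 to 17188295 per library and averaged 13451750 ± 1753072 (SD, n = 8) in replicates 1 and 2 and 13249237 ± 2159831 in replicates 3 and 4 (exact permutation within groups, two-sided p = 0.844). Mitochondrial transcripts took 1.09% to 2.07% of the counts in replicates 1 and 2 and 1.76% to 3.00% in replicates 3 and 4. Pkd2 (chromosome 5, 104459450 to 104505819, GRCm38) stood at 135 to 187 CPM in the 8 libraries without DOX and at 47.6 to 65.9 CPM in the 8 with it, as labelled. All 10 markers of tubule epithelium were tested, and their summed level was 8586 to 10033 CPM in replicates 1 and 2 and 8713 to 10358 CPM in replicates 3 and 4. Of 14 principal cell markers 7 were tested. Of these 1 was called higher and 4 lower in replicates 3 and 4 (median log2 difference -0.30), against 17.5% and 19.5% of all genes. The water channel gene Aqp2, which defines that cell, had no count in any library. Markers of endothelium (at most 0.403 CPM in sum) and of loop and distal tubule (at most 1.01 CPM) were near 0 in both pairs. Markers of leukocytes summed to 23.8 to 75.4 CPM in replicates 1 and 2 and 20.0 to 67.4 CPM in replicates 3 and 4, with Adgre1 and Itgam at 0, and those of fibroblasts to 12.4 to 20.5 and 10.4 to 18.4 CPM, with Lum at 0. Of 6 fibroblast markers 2 were tested, and both, Dcn and Acta2, were called lower (median -0.42), against 19.5% of all genes. The part of these markers in the results was not tested. In bulk RNA, fewer cells of a type and less RNA per cell cannot be told apart.

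**Figure D1:**
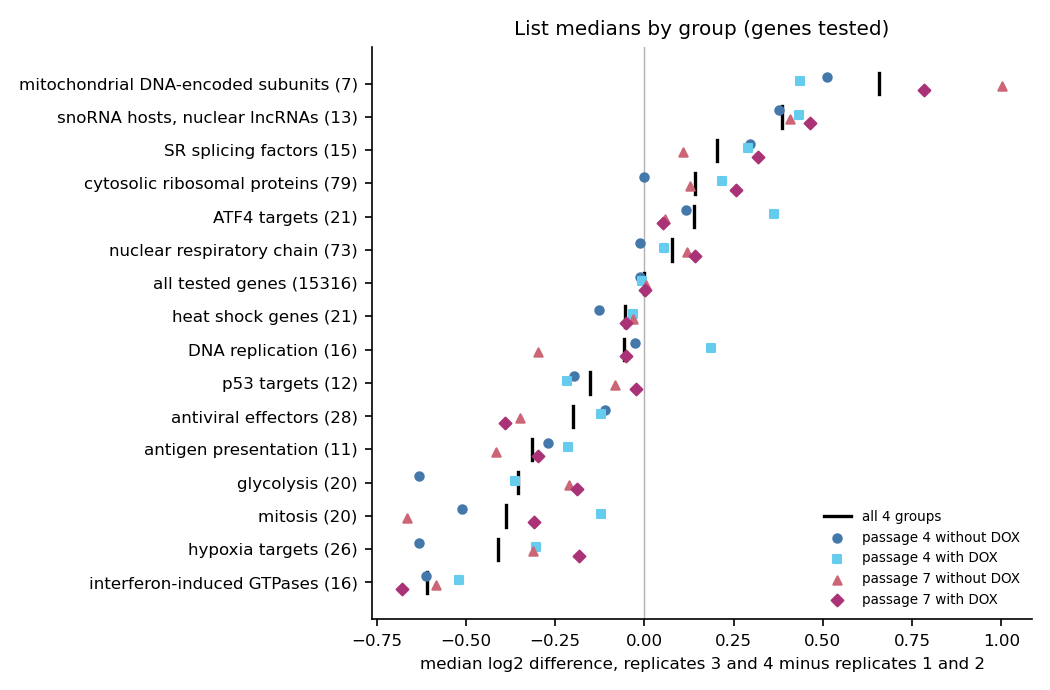
Median log2 difference between the replicate pairs (replicates 3 and 4 minus 1 and 2) for 15 gene lists and all tested genes, with the number of tested genes in brackets; points are the 4 groups and the black line is the value over all groups. Mitochondrial DNA-encoded subunits lie at 0.66 and interferon-induced GTPases at -0.61, with all 4 groups on the same side of 0 in both.

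Among protein-coding genes of at least 5 CPM with separate pairs in every group, the largest differences upward were those of Sgk1, a kinase gene induced by glucocorticoids, aldosterone and serum, and Atf3, a stress-induced transcription factor. Sgk1 (chromosome 10, 21882184 to 21999903) ranged from 9.93 through a median of 17.6 to 27.9 CPM in replicates 1 and 2 and from 19.7 through 45.2 to 96.9 CPM in replicates 3 and 4 (log2 difference 1.32, SE 0.20). Its pairs overlapped across groups but not within any. Atf3 ranged from 25.9 through 28.7 to 45.2 CPM and from 47.9 through 61.7 to 104 CPM (1.08, SE 0.06), and all 8 libraries of replicates 3 and 4 were above all 8 of replicates 1 and 2. The cytokine gene Csf3 (0.88, SE 0.09) and the transcription factor gene Klf11 (0.80, SE 0.07) were also among the 12 largest, as were Mt2, Cirbp, mt-Nd6 and Per1, which are described below. So were Rnf223 (1.06), Sptb (1.05), Masp2 (0.95) and Acp4 (0.90), of which the last 3 overlap a gene on the other strand.

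The largest differences downward were those of Lrp2bp and Ankrd37, a pair of overlapping genes on opposite strands. The interferon-induced tryptophan-degrading enzyme gene Ido1 and the gene of the vasodilator peptide adrenomedullin, Adm, came next. Ido1 ranged from 6.34 through 23.3 to 33.5 CPM in replicates 1 and 2 and from 1.46 through 4.49 to 10.9 CPM in replicates 3 and 4 (-1.95, SE 0.22). Within each group replicates 3 and 4 were lower. Across groups the ranges overlapped, since replicates 1 and 2 at passage 7 with DOX (6.34 and 6.69 CPM) lay below replicates 3 and 4 at passage 4 with DOX (9.54 and 10.9 CPM). Serpina3f, a serine protease inhibitor gene (-1.33, SE 0.17), Ovol1, an epithelial transcription factor gene (-1.29, SE 0.14), and Ppp1r3b, which targets a phosphatase to glycogen (-1.28, SE 0.13), followed. The ubiquitin-like gene Ubd (-1.17, SE 0.11), the cytokine gene Tnfsf9 (-1.15, SE 0.09), Gbp10 (-1.26), Igip (-1.24) and Fstl1 (-1.18) completed the 12.

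**Figure D2:**
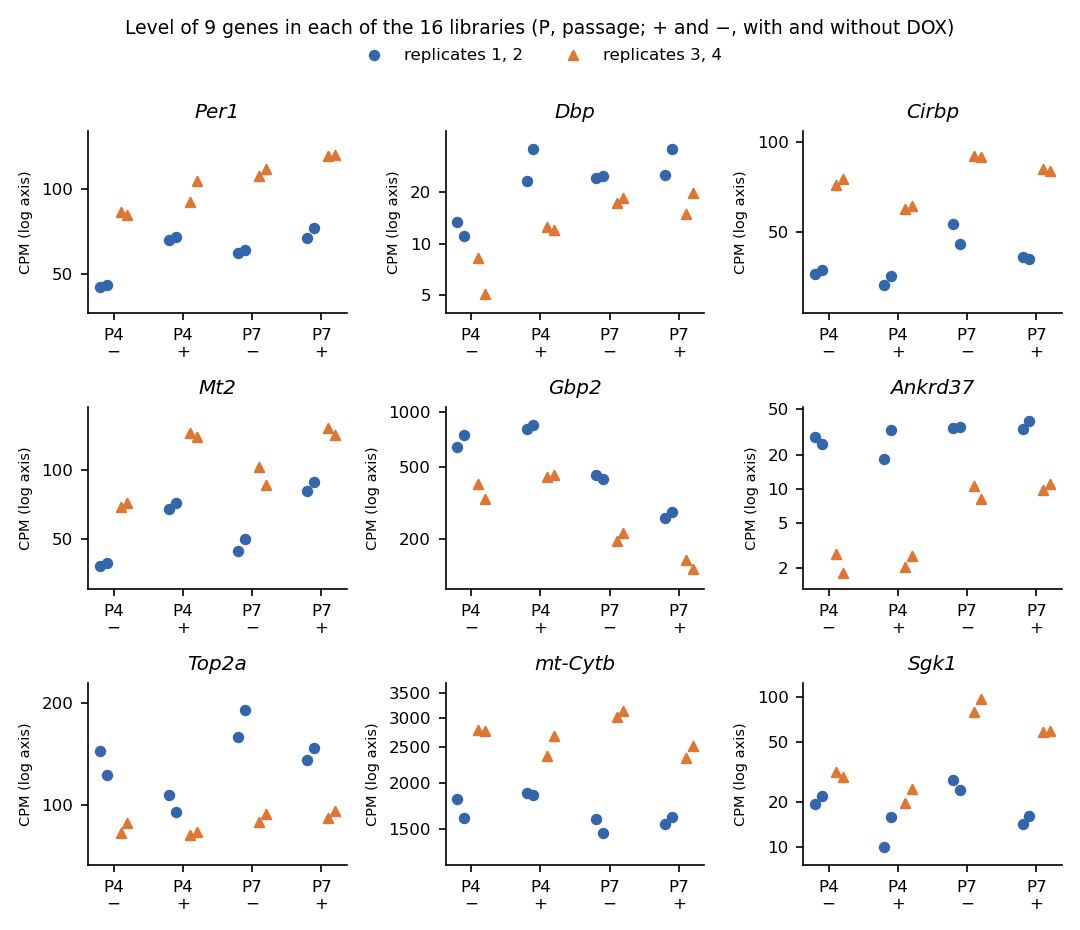
CPM on a log axis of 9 genes in each of the 16 libraries, by group (P4 and P7, passages 4 and 7; minus and plus, without and with DOX), with replicates 1 and 2 as circles and replicates 3 and 4 as triangles. Within every group the triangles of a gene lie all above or all below its circles, including for Sgk1, whose gap is wider at passage 7.

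The clock genes differed in both directions. Per1, a repressor of the loop that responds fast to resetting stimuli, was the clock gene with the largest difference upward. Per1 (chromosome 11, 69095217 to 69109960) was at 45.3, 63.5 and 73.2 CPM (lowest, median and highest) in replicates 1 and 2 and at 81.1, 109 and 133 CPM in replicates 3 and 4, a log2 difference of 0.81 (SE 0.05). No library of one pair reached into the range of the other, and the 4 groups gave 0.56 to 0.93. The other period genes did not move with it. Per2 differed by -0.13 (SE 0.12), with groups from -0.38 to 0.42, and Per3 by -0.49 (SE 0.10), lower in 3 groups and higher in passage 4 without DOX.

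The cryptochromes, which bind the activators together with the period proteins, went opposite ways. Cry2 was higher in replicates 3 and 4 (0.43, SE 0.07) and Cry1 lower (-0.43, SE 0.06), each with separate pairs in all 4 groups. Ciart, another repressor, was higher (0.43, SE 0.08). The REV-ERB repressor genes Nr1d1 (-0.04, SE 0.08) and Nr1d2 (-0.09, SE 0.04) were not called. Of the 15 tested repressors, 6 were called higher and 4 lower, against 17.5% and 19.5% of all genes.

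Of 4 tested activators 1 was called higher and 2 lower, against 17.5% and 19.5% of all genes. Clock was at 57.2, 73.6 and 86.3 CPM in replicates 1 and 2 and at 42.0, 57.3 and 63.3 CPM in replicates 3 and 4 (-0.42, SE 0.04), lower in each group. Rora, which activates the BMAL1 gene, was lower as well (-0.55, SE 0.08), with no overlap between the 8 libraries of each pair. Arntl, which encodes BMAL1, was slightly higher (0.18, SE 0.06), though its passage 4 groups gave -0.04 and 0.07. Of 4 tested output genes 3 were called lower and none higher, against 19.5% and 17.5% of all genes. Dbp, the output transcription factor with the strongest known rhythm in many tissues, was at 11.2, 24.5 and 36.2 CPM and at 5.08, 13.8 and 19.8 CPM (-0.85, SE 0.14), lower in each group. Dbp overlaps Sphk2 on the other strand, which was higher (0.28).

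The core promoter of Ciart carries the clock's binding motif more than once and is shown for that reason. It is the 150 bases before the RefSeq start in GRCm38.p6, chr3:95882229-95882378 on the minus strand, with each E-box (CACGTG, the same on both strands) in capitals.

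Ciart: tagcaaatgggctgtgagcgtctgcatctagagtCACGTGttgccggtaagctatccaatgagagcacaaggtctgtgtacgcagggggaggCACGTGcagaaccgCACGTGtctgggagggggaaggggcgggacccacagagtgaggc

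The window holds 3 matches. In the 250 bases before the start, an E-box was found in 6 of 25 promoters of the clock genes (24%; 17 of 23 tested genes had a promoter entry), against 6.02% of all 32851 promoters in the table. These shares describe the letters only.

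**Figure D3:**
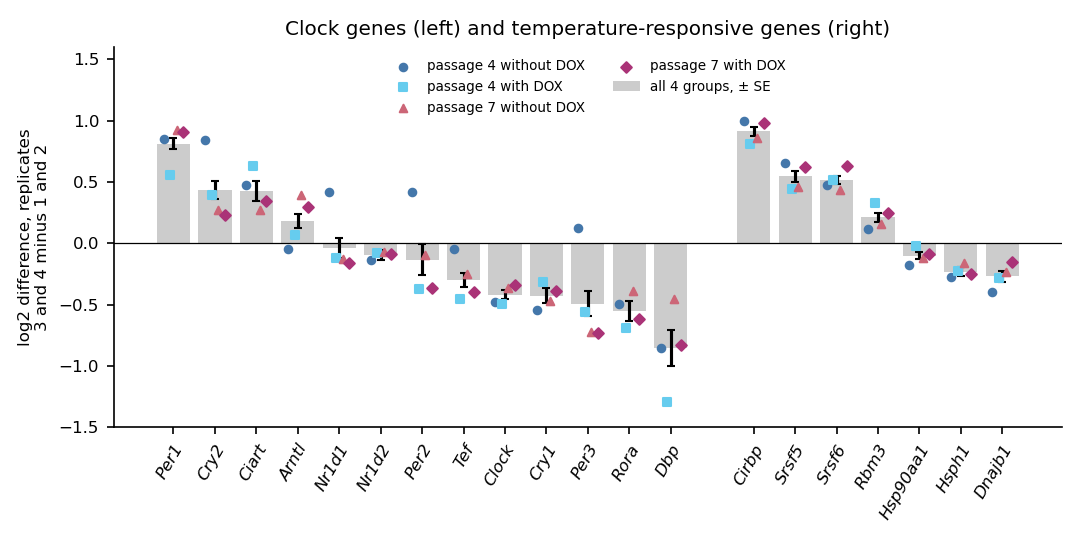
Log2 difference between the replicate pairs (bars, with SE) and in each of the 4 groups (points) for 13 clock genes on the left and 7 temperature-responsive genes on the right. Per1 and Cirbp are above 0 in all 4 groups, Dbp, Rora, Clock and Cry1 below 0 in all 4, and Per2, Per3 and Nr1d1 lie on both sides.

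Genes that respond to temperature differed too, mainly those raised by mild cold in cultured cells. Cirbp, the cold-inducible RNA-binding protein (chromosome 10, 80165985 to 80172786), was at 33.0, 38.9 and 53.1 CPM in replicates 1 and 2 and at 59.5, 77.5 and 90.2 CPM in replicates 3 and 4. The pairs did not overlap anywhere, and the 4 groups gave similar differences of 0.81 to 1.00. Rbm3, its close relative, differed less (0.21, SE 0.04), from 145 to 179 CPM in replicates 1 and 2 and from 175 to 206 CPM in replicates 3 and 4, with separate pairs in each group. A list of SR proteins, related splicing factors and the Clk kinases that phosphorylate them, whose splicing is known to follow body temperature, had 15 tested members. Of these 11 were called higher and none lower, against 17.5% and 19.5% of all genes (median 0.20). Of the kinases only Clk2 was called (0.27, SE 0.06), and Clk1, Clk3 and Clk4 differed by 0.02, -0.09 and 0.06. Srsf5 differed by 0.54 (SE 0.04), Srsf6 by 0.52 (SE 0.03), Srsf11 by 0.46 (SE 0.05), Srsf3 by 0.38 (SE 0.03) and Srsf2 by 0.35 (SE 0.03), and in these 5 the 8 libraries of each pair were fully apart.

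The heat shock genes that HSF1 drives differed little. Of 21 tested, 5 were called lower and none higher, against 19.5% and 17.5% of all genes, with a median of -0.05. These were the chaperone and co-chaperone genes Dnajb1 (-0.27, SE 0.05), Hsph1 (-0.23, SE 0.04), Hspa4l (-0.19, SE 0.03), Chordc1 (-0.18, SE 0.04) and Hsp90aa1 (-0.10, SE 0.03).

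Metallothioneins, small proteins that bind zinc, copper and cadmium and are induced by metals and glucocorticoids, were higher in replicates 3 and 4. Mt2 (chromosome 8, 94172664 to 94173568) was at 38.4, 59.0 and 88.0 CPM in replicates 1 and 2 and at 69.2, 121 and 151 CPM in replicates 3 and 4, and the 4 groups gave 0.79 to 1.02. Mt1, its neighbour, was at 99.0, 168 and 225 CPM and at 138, 239 and 294 CPM (0.51, SE 0.04). Both genes had separate pairs in every group but overlapped between groups. Both also rose with DOX over all libraries, Mt2 by 0.83 (edgeR adjusted p = 1.8e-14) and Mt1 by 0.70 (edgeR adjusted p = 2.2e-12). Mt2 overlaps Gm45774 on the other strand, which differed alike (0.88).

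Slc30a1, the zinc exporter that the metal-sensing factor MTF1 controls, was higher as well, at 13.2, 21.7 and 29.5 CPM against 23.5, 33.3 and 44.7 CPM (0.66, SE 0.06). Slc30a2, another exporter, differed by 1.43 (SE 0.31) at a very low level of at most 2.03 CPM. Of 7 tested exporters 2 were called higher and 1 lower (median 0.01), the lower one being Slc30a7 (-0.19, SE 0.04), with separate pairs in each group. Of 12 tested zinc importers 2 were called higher and 3 lower (median 0.02). For both lists the shares over all genes were 17.5% and 19.5%. Mtf1 itself was slightly lower (-0.18, SE 0.06). Among the genes of iron and copper, Tfrc, the transferrin receptor of iron uptake, was lower (-0.47, SE 0.06) and Fth1, the ferritin heavy chain of iron storage, higher (0.22, SE 0.04). Atp7b, a copper-transporting ATPase, was lower at a low level (-0.77, SE 0.19). Of these 14 tested genes, 1 was called higher and 5 lower, against 17.5% and 19.5% of all genes.

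Part of the Mt2 promoter is shown because the metal response element, TGCGCNC on either strand and in capitals here, lies within it. It covers chr8:94172468-94172617, GRCm38.p6, plus strand, the 150 bases before the RefSeq start.

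Mt2: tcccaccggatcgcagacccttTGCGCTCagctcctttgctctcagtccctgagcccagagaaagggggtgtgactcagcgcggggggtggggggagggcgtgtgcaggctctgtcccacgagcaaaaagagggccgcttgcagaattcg

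Within 250 bases, 4 of 10 promoters of tested metallothionein-list and zinc exporter genes held this motif (40%), against 12.5% of all promoters. It was also found in 36% of clock gene promoters and 29% of glycolysis promoters. Slc30a4 and Slc30a5, whose promoters held it, differed by -0.04 and 0.01 and were not called.

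Genes induced by interferon were lower in replicates 3 and 4, and the interferon-induced GTPases most uniformly of the lists described here. These GTPases attack the vacuoles of intracellular pathogens and are typical targets of interferon gamma. All 16 listed members were tested and all 16 were called lower, 15 of them with separate pairs in each group, against 19.5% and 8.75% of all genes (median -0.61). Gbp2 (chromosome 3, 142620602 to 142638008) was at 262, 546 and 846 CPM in replicates 1 and 2 and at 136, 273 and 448 CPM in replicates 3 and 4, and its groups gave -1.10 to -0.90. The ranges overlap, since replicates 1 and 2 were at 262 and 282 CPM at passage 7 with DOX and replicates 3 and 4 at 437 and 448 CPM at passage 4 with DOX, but within each group both libraries of replicates 3 and 4 were lower. Gbp10 (-1.26, SE 0.09), Gbp7 (-1.13, SE 0.07), Gbp5 (-1.11, SE 0.14) and Gbp6 (-0.81, SE 0.06) differed by similar amounts. Igtp (-0.61, SE 0.04), Irgm2 (-0.61, SE 0.04), Gbp4 (-0.61, SE 0.06), Gbp9 (-0.31, SE 0.04), Irgm1 (-0.31, SE 0.04) and Gbp8 (-0.30, SE 0.07) were lower as well. Tgtp1 and Tgtp2 are near-identical and Gbp genes alike in places, so their separate values are uncertain where counting could share reads.

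The promoters of 5 of these GTPase genes are shown because each holds the interferon-stimulated response element, searched on both strands as the 4 letters GAAA, 2 letters of any kind and GAAA again, and printed in capitals. Each is the 150 bases before the RefSeq start in GRCm38.p6, all on the plus strand. Their positions are chr3:142620513-142620662 (Gbp2), chr3:142559894-142560043 (Gbp3), chr3:142530186-142530335 (Gbp7), chr11:58199406-58199555 (Igtp) and chr11:58214827-58214976 (Irgm2).

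Gbp2: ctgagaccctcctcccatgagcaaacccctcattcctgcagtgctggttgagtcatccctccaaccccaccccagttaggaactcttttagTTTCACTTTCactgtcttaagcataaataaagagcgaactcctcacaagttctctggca
Gbp3: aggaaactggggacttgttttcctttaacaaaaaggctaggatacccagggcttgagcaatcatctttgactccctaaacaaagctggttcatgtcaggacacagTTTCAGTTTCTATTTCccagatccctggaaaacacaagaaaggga
Gbp7: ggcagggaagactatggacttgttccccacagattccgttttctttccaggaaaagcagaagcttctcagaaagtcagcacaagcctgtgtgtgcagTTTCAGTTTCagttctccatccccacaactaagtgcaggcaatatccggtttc
Igtp: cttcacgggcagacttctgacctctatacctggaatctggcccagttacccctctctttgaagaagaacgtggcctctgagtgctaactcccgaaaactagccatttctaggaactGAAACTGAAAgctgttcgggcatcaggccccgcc
Irgm2: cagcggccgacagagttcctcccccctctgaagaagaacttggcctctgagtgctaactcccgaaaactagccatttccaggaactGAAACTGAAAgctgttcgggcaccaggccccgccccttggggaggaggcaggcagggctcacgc

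In 250 bases before the start, 9 of 11 promoters of these GTPases held the element (81.8%; 10 of 16 genes had an entry) and 9 of 20 of the antiviral effectors (45%), against 2.98% of all promoters. A match is not evidence that a factor was bound in these cells.

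Among the regulators and receptors of the interferon response the differences were uneven. Ciita, the master regulator of MHC class II genes, was at 34.8, 43.5 and 49.6 CPM and at 19.0, 22.7 and 26.9 CPM (-0.92, SE 0.06), with no overlap at all. Irf1 was lower (-0.26, SE 0.03), while Irf7 (-0.23, SE 0.11) and Stat2 (-0.18, SE 0.11) were not called. Of 9 tested receptor and kinase genes 2 were called, both lower, against 19.5% of all genes. The listed ligand genes Ifnb1, Ifnl2 and Ifnl3 were not tested. The called genes were the kinase genes Jak2 (-0.16, SE 0.03) and Jak1 (-0.08, SE 0.03). All 11 genes of antigen processing and presentation were called lower (median -0.31), against 19.5% of all genes. Among them were the peptide transporter genes Tap1 (-0.35, SE 0.04) and Tap2 (-0.35, SE 0.03) and the immunoproteasome subunit gene Psmb10 (-0.33, SE 0.04).

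The antiviral effectors, which respond mostly to type I interferon, were less uniform. Of 28 tested, 15 were called lower and none higher, against 19.5% and 17.5% of all genes, with a median of -0.20. The nucleic acid sensor gene Zbp1 (-0.59, SE 0.08), Ifit2, which binds viral RNA (-0.55, SE 0.05), and Parp14 (-0.55, SE 0.06) differed most. The ubiquitin-like gene Isg15 (-0.17) was not called, and Mx1 (0.28, SE 0.27) and Mx2 (0.26, SE 0.18) were higher without being called. Mx1 was near the floor, at a mean of 0.92 CPM in replicates 1 and 2 and 1.14 CPM in replicates 3 and 4. The list's median was -0.11 and -0.12 in the passage 4 groups and -0.35 and -0.39 in the passage 7 groups, and 9 members were called more negative at passage 7 in the test of that difference, none more positive. That compares with 3.51% of all genes called more negative.

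Targets of hypoxia-inducible factors were lower in replicates 3 and 4, led by Ankrd37, an ankyrin-repeat gene that hypoxia induces strongly. Ankrd37 (chromosome 8, 45996902 to 46005707) was at 18.3, 33.4 and 39.2 CPM in replicates 1 and 2 and at 1.80, 5.39 and 10.9 CPM in replicates 3 and 4 (-2.42, SE 0.25). The 8 libraries of each pair were far apart, and the difference was larger at passage 4 (-3.55 and -3.49) than at passage 7 (-1.87 and -1.82). Lrp2bp, on the opposite strand across the same region, differed by -2.44 (SE 0.25), and the deposited counts do not separate reads of the overlapping stretch with certainty. Adm was at 9.15, 19.6 and 33.9 CPM and at 6.25, 7.31 and 10.4 CPM (-1.47, SE 0.15).

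Of 26 tested targets 17 were called lower and none higher (median -0.41), against 19.5% and 17.5% of all genes. In 8 of the 26, replicates 3 and 4 were lower with separate pairs in every group, against 8.75% of all genes. Among those called lower were Ak4, a mitochondrial adenylate kinase (-0.76, SE 0.15), Ddit4, an inhibitor of mTOR (-0.70, SE 0.11), and the growth factor gene Vegfa (-0.47, SE 0.12). Car9, a usual hypoxia marker, was not called (0.10, SE 0.26). Its level was near the floor, at a mean of 0.62 CPM in replicates 1 and 2 and 0.68 CPM in replicates 3 and 4. Of 9 tested regulators 4 were called lower and none higher (median -0.03), against 19.5% and 17.5% of all genes. Egln3, a prolyl hydroxylase that is itself a target, was lower (-0.97, SE 0.18), as were Egln1 (-0.46, SE 0.10) and Arnt (-0.24, SE 0.05), the partner that HIF factors bind DNA with. Hif1a, the remaining called member, was at 120, 132 and 171 CPM and at 105, 121 and 175 CPM (-0.09, SE 0.03), and Epas1, which was not called, differed by 0.09 (SE 0.19). Hif1a encodes a protein controlled mostly by its stability, so its transcript level is only part of its state.

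Genes of glycolysis, many of them hypoxia targets too, went the same way. Of 20 tested 17 were called lower and none higher (median -0.35), against 19.5% and 17.5% of all genes. In 4 of the 20, replicates 3 and 4 were lower with separate pairs in every group, against 8.75% of all genes. The lactate exporter gene Slc16a3 (-0.81, SE 0.20), Pfkl (-0.54, SE 0.13), Pgk1 (-0.52, SE 0.17), Hk2 (-0.49, SE 0.05) and Ldha, the lactate dehydrogenase subunit, differed most. Ldha was at 837, 1422 and 1728 CPM and at 529, 1091 and 1480 CPM (-0.51, SE 0.15), and its ranges overlapped widely. The difference was unequal among the groups: the list's median was -0.63 at passage 4 without DOX, -0.36 at passage 4 with DOX, and -0.21 and -0.19 at passage 7. In the test between passages 1 member was called, the hexokinase gene Hk2, whose difference was more negative at passage 7 (-0.65) than at passage 4 (-0.33), by edgeR with an adjusted p of 0.0059.

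The Ankrd37 and Egln1 promoters are shown for the hypoxia response element core, ACGTG on either strand, in capitals. They are chr8:45999851-46000000 and chr8:124949255-124949404, both on the minus strand of GRCm38.p6, the 150 bases before the RefSeq starts.

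Ankrd37: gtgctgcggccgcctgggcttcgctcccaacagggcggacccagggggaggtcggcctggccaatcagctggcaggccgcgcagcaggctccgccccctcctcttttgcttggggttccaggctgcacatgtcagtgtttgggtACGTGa
Egln1: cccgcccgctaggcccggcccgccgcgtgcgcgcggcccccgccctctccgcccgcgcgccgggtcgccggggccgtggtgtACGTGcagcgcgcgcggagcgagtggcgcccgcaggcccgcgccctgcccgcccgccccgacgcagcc

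The core was found in 17 of 38 promoters of hypoxia targets and regulators (44.7%) and 12 of 31 of glycolysis genes (38.7%), against 16.6% of all promoters. It was also found in 10 of 25 clock gene promoters (40%), where the E-box CACGTG, which contains it, was found in 6, and in 4 of 10 promoters of the metallothionein and zinc exporter genes (40%).

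Transcripts of the mitochondrial genome were higher in replicates 3 and 4, as a larger share of all counts. All 7 tested subunit genes of 13 listed were called higher with separate pairs in each group (median 0.66), against 17.5% and 6.1% of all genes. The other 6, mt-Nd3, mt-Nd4l, mt-Co2, mt-Co3, mt-Atp6 and mt-Atp8, did not pass the filter on low counts. The cause of their low counts was not tested. mt-Cytb, the complex III subunit (chromosome M, 14145 to 15288), was at 1462, 1609 and 1870 CPM in replicates 1 and 2 and at 2334, 2719 and 3115 CPM in replicates 3 and 4. No library overlapped between the pairs. mt-Nd6, a complex I subunit on the light strand opposite mt-Nd5, differed by 0.83 (SE 0.09), mt-Nd5 by 0.77 (SE 0.07) and mt-Co1, a complex IV subunit, by 0.42 (SE 0.05). The 7 subunits were all called more positive at passage 7 than at passage 4, against 3.56% of all genes.

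Of 73 tested nuclear-encoded subunits of the respiratory chain 25 were called higher and 1 lower (median 0.08, and -0.01 at passage 4 without DOX), led by the ATP synthase subunit gene Atp5l (0.46, SE 0.07). Over all genes 17.5% were called higher and 19.5% lower. Of 79 tested cytosolic ribosomal protein genes 55 were called higher and none lower (median 0.14), such as Rps29 (0.42, SE 0.04) and Rpl19 (0.29, SE 0.04). Their median was -0.00 at passage 4 without DOX, 0.22 at passage 4 with DOX, and 0.13 and 0.26 at passage 7 without and with DOX. Ribosomal protein genes have many processed copies, so single values are uncertain. Of 13 snoRNA host genes and nuclear long noncoding RNAs, 12 were called higher and none lower (median 0.39), including Snhg17 (0.77, SE 0.08), Snhg5 (0.74, SE 0.06) and Malat1 (0.70, SE 0.13).

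Most listed genes of mitosis were lower in replicates 3 and 4. Of 20 mitosis genes 18 were called lower (median -0.39), against 19.5% of all genes. Top2a, the topoisomerase that untangles chromosomes (chromosome 11, 98992943 to 99024189), was at 95.4, 141 and 192 CPM in replicates 1 and 2 and at 81.8, 88.9 and 96.2 CPM in replicates 3 and 4 (-0.62, SE 0.08). Replicates 3 and 4 hardly varied among the groups, while replicates 1 and 2 ranged widely. Cenpe (-0.67, SE 0.06) and Cenpf (-0.66, SE 0.07), which work at the kinetochore, and the proliferation marker Mki67 (-0.65, SE 0.12) were similar. The list's median ran from -0.12 at passage 4 with DOX to -0.67 at passage 7 without DOX. Of 16 genes of DNA replication 1 was called higher and 1 lower (median -0.06), against 17.5% and 19.5% of all genes. Their median was -0.03 and 0.19 at passage 4 without and with DOX and -0.30 and -0.05 at passage 7, and in 8 of the 16 the difference was called more negative at passage 7 by edgeR, against 3.51% of all genes.

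Other lists gave smaller or mixed differences. Their counts stand beside 17.5% of all genes called higher and 19.5% called lower. Of 10 glucocorticoid-responsive genes 5 were called higher, Sgk1 and the glutamine synthetase gene Glul (0.51, SE 0.08) among them, and the receptor gene Nr3c1 lower (-0.43, SE 0.04). Fkbp5, a sensitive glucocorticoid target, was not called (0.10, SE 0.04). Of 22 immediate early genes 8 were called higher and 2 lower, with the ERK phosphatase gene Dusp6 (-0.79, SE 0.14) opposite to Atf3. Of 16 NF-kB targets and chemokines 6 were called higher and 4 lower: the neutrophil chemokine gene Cxcl2 (1.27, SE 0.15) was higher and the adhesion molecule gene Vcam1 (-0.47, SE 0.16) lower. Of 21 ATF4 targets 12 were called higher and 2 lower (median 0.14), led by the glutathione-degrading enzyme gene Chac1 (0.61, SE 0.09). Of 12 p53 targets 2 were called higher and 7 lower, including Zmat3 (-0.53, SE 0.04) and Mdm2 (-0.42, SE 0.03), which marks p53 for degradation. Slc5a3, the osmolyte transporter for myo-inositol, was lower (-0.76, SE 0.08) with no overlap, while the osmotic regulator Nfat5 differed by 0.07 (SE 0.05).

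Gene length and base composition went with the difference. Protein-coding genes with a mean of at least 5 CPM were ranked by exon length and cut into 5 classes of like size. The shortest class (201 to 2686 bases, 2151 genes) had a median of 0.05, with 24.7% called higher and 9.16% lower. The longest class (7887 to 123179 bases) had a median of -0.08, with 9.35% called higher and 42.4% lower. By GC content the medians ran from -0.06 in the lowest class to 0.05 in the highest, and in passage 4 without DOX from -0.14 to 0.09. The part of length and composition in the gene groups above was not tested.

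Whether the pairs differed by the same amount at both passages is a contrast that the split did not use, and it was tested. The spread in this test, and in that for DOX below, is that between the 2 libraries of a pair within a group. If the libraries of a pair share a culture, the spread between cultures is not in it, and the labels do not say. The difference between the pairs was more positive at passage 7 in 545 genes (3.56%) and more negative in 537 (3.51%), in all 1082 (7.06%) at an adjusted p under 0.05 by edgeR's quasi-likelihood test, and in 672 of the 1082 its sign was opposite at the passages. At an unadjusted p under 0.05 there were 3305. Without 1 library the total ran from 660 (without passage 4 with DOX, replicate 4) to 1467 (without passage 4 with DOX, replicate 1).

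**Figure D4:**
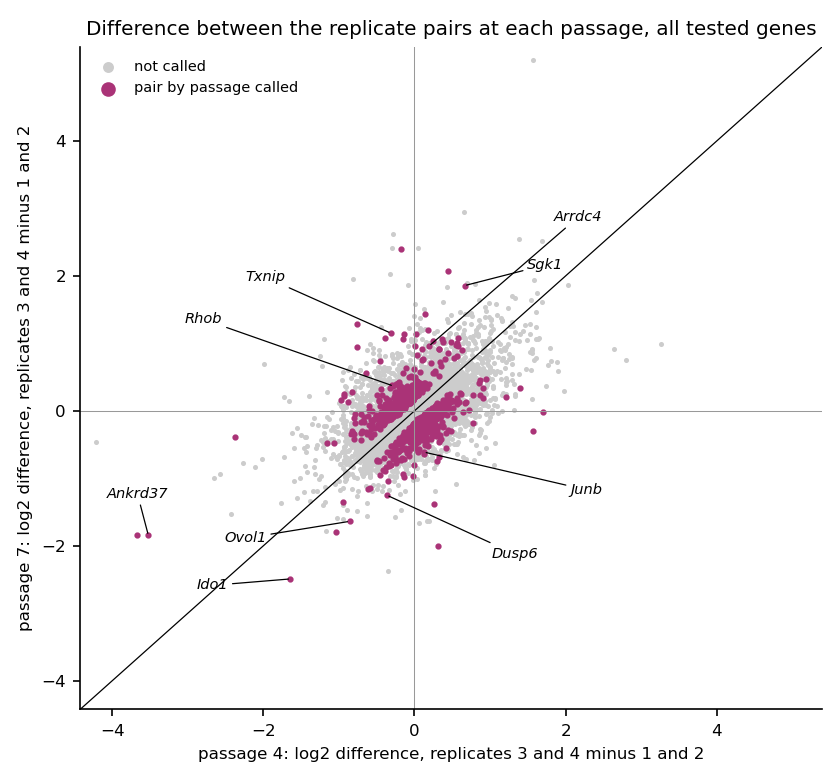
Log2 difference between the replicate pairs at passage 4 (x axis) and at passage 7 (y axis), each the mean of the groups without and with DOX, for all 15316 tested genes; coloured points are the 1082 genes called in the test of the difference between passages, and the line marks equal values. Dusp6, Ovol1 and Junb lie below the line and Rhob, Sgk1 and Txnip above it.

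The gene with the smallest adjusted p was Ddit4, the mTOR inhibitor induced by hypoxia and glucocorticoids. Its mean in replicates 1 and 2 and in replicates 3 and 4 was 242 and 176 CPM at passage 4 without DOX, 291 and 246 at passage 4 with DOX, 315 and 171 at passage 7 without DOX, and 593 and 259 at passage 7 with DOX. The gap widened at passage 7, by -0.69 (SE 0.05, edgeR adjusted p = 5.8e-10). Of 22 tested immediate early and growth factor response genes, 5 were called more negative at passage 7 and 1 more positive, against 3.51% and 3.56% of all genes. Junb, a subunit of the AP-1 factor, moved from a mean difference of 0.13 at passage 4 to -0.61 at passage 7 (edgeR adjusted p = 3.8e-09) and Dusp6, a phosphatase acting on ERK, from -0.36 to -1.25 (edgeR adjusted p = 2.5e-06). The stress cytokine gene Gdf15 and the phosphatase regulator gene Ppp1r10 also became more negative, from 0.01 to -0.46 and from 0.18 to -0.42. Ovol1 went from -0.86 to -1.64 (edgeR adjusted p = 0.023).

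In the other direction, Rhob, a small GTPase gene, turned from -0.28 at passage 4 to 0.37 at passage 7 (edgeR adjusted p = 1.6e-07). Klf10, a TGF-beta-induced repressor gene, went from 0.10 to 0.75 and the p53 target Trp53inp1 from -0.53 to -0.12, both with an edgeR adjusted p of 2.5e-06. mt-Nd6 went from 0.58 to 1.08 and mt-Rnr1 from 0.38 to 1.01. Sgk1 was 20.5 and 30.5 CPM in the pairs at passage 4 without DOX and 26.0 and 88.6 CPM at passage 7 without DOX, so that its difference of 0.66 at passage 4 became 1.86 at passage 7 (edgeR adjusted p = 0.00074). Ankrd37 went from -3.52 to -1.85 (edgeR adjusted p = 0.014). Among the clock genes, Per1 (0.71 and 0.92, edgeR adjusted p = 0.062) did not pass and Cry2 (0.62 and 0.25, edgeR adjusted p = 0.044) and Arntl (0.01 and 0.34, edgeR adjusted p = 0.027) did. Cirbp (0.90 and 0.92), Mt2 (0.94 and 0.90) and Gbp2 (-0.91 and -1.01) had nearly equal differences at the passages, with edgeR adjusted p-values of 0.93, 0.82 and 0.59, which do not show that they are equal.

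The response to DOX was compared between the pairs in the same way, as an interaction averaged over the passages. It was more positive in replicates 3 and 4 in 120 genes (0.783%) and more negative in 118 (0.77%), in all 238 (1.55%) by edgeR's quasi-likelihood test, and in 99 of them the response had opposite signs in the pairs. At an unadjusted p under 0.05 there were 2091. The count moved with single libraries: without replicate 1 of passage 4 without DOX it was 119, without replicate 1 of passage 4 with DOX it was 504, and without all libraries of replicate 3 it was 8.

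**Figure D5:**
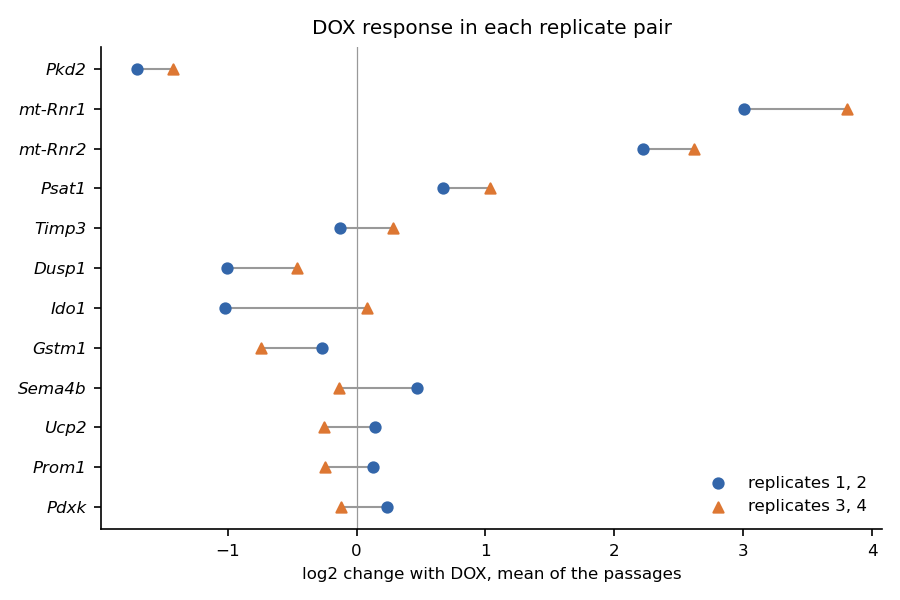
Log2 change with DOX, averaged over the passages, in replicates 1 and 2 (circles) and in replicates 3 and 4 (triangles) for Pkd2, Ido1 and the 10 genes named for this interaction. Pkd2 lies at -1.71 and -1.42, and Sema4b, Ucp2, Prom1 and Pdxk are above 0 in replicates 1 and 2 and below 0 in replicates 3 and 4.

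Pkd2 itself responded somewhat less in replicates 3 and 4. With DOX at passage 4 it was at 52.1 and 47.8 CPM in replicates 1 and 2 and at 53.6 and 57.4 CPM in replicates 3 and 4, and at passage 7 at 47.6 and 52.9 CPM and at 60.3 and 65.9 CPM. Without DOX it was at 145 and 142 CPM against 135 and 138 CPM at passage 4, and at 187 and 185 CPM against 184 and 185 CPM at passage 7. With DOX replicates 3 and 4 were thus the higher at both passages, and without DOX they were not. The response was -1.71 in replicates 1 and 2 and -1.42 in replicates 3 and 4, a difference of 0.28 (SE 0.06, edgeR adjusted p = 0.015). A count over the whole gene also takes in reads from any part that the knockout leaves.

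Of the mitochondrial ribosomal RNAs, mt-Rnr1 (chromosome M, 70 to 1024) had a larger rise with DOX in replicates 3 and 4, by 0.80 (SE 0.07, edgeR adjusted p = 1.2e-06), as had mt-Rnr2, with rises of 2.22 and 2.62 (edgeR adjusted p = 0.00015). Without DOX at passage 4 the pairs hardly differed in mt-Rnr1 (185 and 181 CPM), while with DOX they stood at 1595 and 2760 CPM. Of the 7 subunit genes of the same genome 2 were called, both more negative, and none more positive. The response of mt-Cytb was 0.09 and -0.24 (edgeR adjusted p = 0.0046) and that of mt-Nd4 1.05 in both pairs. The protocol captures RNA by its poly(A) tail, so ribosomal RNA is caught only in part.

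Dusp1, a stress-induced phosphatase gene that glucocorticoids raise, fell with DOX by 1.01 on the log2 scale in replicates 1 and 2 and by 0.46 in replicates 3 and 4 (edgeR adjusted p = 0.00011). Psat1, an enzyme of serine synthesis, rose by 0.67 and 1.03 (edgeR adjusted p = 0.0014). Timp3, an inhibitor of matrix proteases that overlaps Syn3, had mean responses of -0.13 and 0.28 (edgeR adjusted p = 0.00021), from opposite changes at the passages. In replicates 1 and 2 it fell from 503 and 525 to 276 and 295 CPM at passage 4. At passage 7 it rose from 358 and 310 to 484 and 523 CPM. In replicates 3 and 4 it fell from 418 and 406 to 335 and 353 CPM at passage 4. At passage 7 it rose there from 295 and 313 to 547 and 534 CPM. Gstm1, a glutathione transferase gene with near-identical relatives, responded by -0.27 and -0.74 (edgeR adjusted p = 1.2e-06), and Sema4b, a semaphorin gene, by 0.47 and -0.14 (edgeR adjusted p = 2.9e-06). Ucp2, a mitochondrial carrier, Prom1, a membrane glycoprotein gene, and Pdxk, the vitamin B6 kinase, had mean responses of opposite sign in the pairs. Averaged over the passages they were 0.14, 0.13 and 0.23 in replicates 1 and 2 and -0.25, -0.25 and -0.12 in replicates 3 and 4. In replicates 1 and 2 the sign depended on the passage for Prom1 and Pdxk. Prom1 went from 921 and 981 to 1205 and 1384 CPM with DOX at passage 4. At passage 7 it went from 1003 and 1000 to 917 and 849 CPM. Pdxk went from 259 and 268 to 389 and 410 CPM at passage 4. At passage 7 it went from 319 and 309 to 294 and 280 CPM. On average over the passages, Ido1 fell by 1.02 on the log2 scale in replicates 1 and 2, where there was more of it. Its value was 0.08 in replicates 3 and 4 (edgeR adjusted p = 0.014). With DOX, replicates 1 and 2 went from 23.3 and 33.5 to 23.3 and 25.1 CPM at passage 4. At passage 7 they went from 21.7 and 24.2 to 6.34 and 6.69 CPM. Replicates 3 and 4 went from 7.86 and 5.94 to 9.54 and 10.9 CPM at passage 4. At passage 7, at a low level, they went from 3.05 and 1.81 to 2.31 and 1.46 CPM.

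By list, 17 of 79 ribosomal protein genes were called more positive in their response to DOX in replicates 3 and 4 and none more negative, against 0.783% of all genes, with list medians of 0.24 and 0.42. Of 15 NRF2 targets, the antioxidant genes, 4 were called more negative, against 0.77% of all genes, with medians of -0.14 and -0.34. The mitosis genes had a median response of -0.36 in replicates 1 and 2 and 0.01 in replicates 3 and 4, with 2 of 20 called more positive. No gene of the clock, metallothionein or interferon-induced GTPase lists was called in this test.

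The term that asks whether the interaction of pair and DOX itself differed between passages was called in 3 genes (0.0196%) by edgeR and in 11 by DESeq2, and at an unadjusted p under 0.05 in 1181. The 3 were Chac1 (-0.83, SE 0.15), the retinol dehydrogenase gene Rdh10 (-0.65, SE 0.12) and Mcc (-1.47, SE 0.26), each with an edgeR adjusted p of 0.019. Leaving out 1 library gave between 0 and 41 calls.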

How the data were processed

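The authors deposited a table of raw read counts per gene, 9937504 to 17188295 per library, made from poly(A)-selected, strand-marking libraries (2 reads of 75 bp) aligned with STAR 2.6.0c to GRCm38.p6, per the labels' protocols. Neither the counting tool nor its annotation or strand setting is given in the sources used here. A gene and its antisense partner may therefore share reads. Another deposited table, of TPM values, was not used. Identifiers of all 55536 genes were matched to GENCODE M21 (GRCm38).

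Genes were kept by filterByExpr (15316) and scaled by TMM. edgeR 4.0.16 (R 4.3.3) fitted robust quasi-likelihood models with group and pair (11 residual degrees of freedom), and with a pair difference per group (8) for the interactions, with Benjamini-Hochberg adjustment over all tested genes and a threshold of 0.05. Totals were compared by exact permutation within groups (1296 arrangements, lowest possible p 0.00154). Tested on simulated data of 15316 genes, the pair difference was called in 86% of genes changed 1.25-fold and the interaction with passage in 40%, and 14 of 207 and 19 of 182 calls were false. The changes were set in a small part of the genes, all above a minimum mean count, so these rates do not cover genes of low count.

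The members and gene lists were chosen with earlier results of these data known. Genes were named as the 12 with the largest difference in each direction (protein-coding, at least 5 CPM in the higher pair, pairs separate in all 4 groups), up to 5 members of a list by size of difference plus its central members, the 5 with the smallest adjusted p in each direction of an interaction, and Pkd2. Partners on the opposite strand were added, and the list members Car9, Ciart, Clk1 to Clk4, Fkbp5, Gbp3, Gbp4, Gbp8, Gbp9, Igtp, Irgm1, Irgm2, Isg15, Mx1, Mx2, Slc30a4, Slc30a5, Vegfa and mt-Co1 were chosen after their values were seen, as was Txnip. With each group's mean subtracted, same-numbered libraries correlated across genes at 0.175 to 0.369 between groups. The difference between the replicate pairs remains in these values, so they cannot show whether single numbers pair libraries. An alternative with a replicate block treated the numbers as pairing libraries. Within a group, counts of replicates 1 and 2, or of 3 and 4, differed by more than sampling noise (chi-square per degree of freedom 1.88 to 4.68), so none is a library deposited as a duplicate. Alternatives were DESeq2 1.42.0, upper-quartile scaling, no filter on low counts, the replicate block, and leaving out each library or each replicate number. Promoters came from the RefSeq table for GRCm38.p6.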

Additional observations from a re-analysis of the deposited data

Results flagged for a closer look

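In 220 sets of 4 libraries checked (library totals and key genes by group), 1 library stood apart from its group, relative to the group's range. Psat1 was at 137 CPM in replicate 1 of passage 4 without DOX, and at 126 CPM in each of replicates 2, 3 and 4. The gap was thus large only against the narrow spread of the other libraries. Chance would give about 1 in 20 if the 4 libraries were alike. Each group joins both replicate pairs, and many key genes differ between these. A single library then rarely stands out, so the low count is no measure of library quality. The other results here are those in which the test of an interaction by edgeR passed an adjusted p of 0.05, so that an effect differed between the pairs or the passages.

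The difference between the pairs was more positive at passage 7 than at passage 4 in Txnip (1.46), Ankrd37 (1.68), Sgk1 (1.19), Arrdc4 (0.77), Rhob (0.65), Klf10 (0.65) and Trp53inp1 (0.41). It was so too in Arntl (0.33) and in the mitochondrial genes mt-Rnr1 (0.63), mt-Nd6 (0.50), mt-Rnr2 (0.43), mt-Nd4 (0.25) and mt-Cytb (0.24). It was more negative at passage 7 in Dusp6 (-0.89), Ido1 (-0.85), Ovol1 (-0.78), Adm (-0.75), Junb (-0.74), Ddit4 (-0.69), Ppp1r10 (-0.59), Gdf15 (-0.46), Chac1 (-0.45), Sema4b (-0.37), Cry2 (-0.37) and Hk2 (-0.32).

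The response to DOX was more positive in replicates 3 and 4 in Ido1 (1.10), mt-Rnr1 (0.80), Dusp1 (0.55), Timp3 (0.41), mt-Rnr2 (0.40), Psat1 (0.36) and Pkd2 (0.28). It was more negative in Sema4b (-0.60), Gstm1 (-0.47), Klf10 (-0.42), Ucp2 (-0.39), Prom1 (-0.38), Pdxk (-0.36) and mt-Cytb (-0.33). The 3-way term was called in Mcc (-1.47), Chac1 (-0.83) and Rdh10 (-0.65).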

How the results depend on the processing

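Of the 5657 genes called between the pairs, 2673 were higher and 2984 lower, against 2553 and 2797 with DESeq2, 3158 and 2612 with upper-quartile scaling, 2560 and 2976 without the filter on low counts, and 2559 and 2892 with the replicate block. The share called higher was 47.3%, and 54.7% with upper-quartile scaling. Leaving out 1 library gave 2432 to 2570 and 2669 to 2899, and leaving out a replicate number 1865 to 1990 and 2072 to 2303. The genes with separate pairs in all groups (935 and 1340) came to 990 to 1182 and 1348 to 1510 without 1 library and, with fewer libraries to separate, to 1490 to 1712 and 1909 to 1987 without a number.

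The 238 calls for DOX became 189 with DESeq2, 475 without the filter and 302 with the replicate block, 119 to 504 without 1 library and 8 to 532 without a number. The 1082 calls for passage became 759, 1241 and 1153 under the same settings, 660 to 1467 without 1 library and 107 to 1072 without a number. The 3 calls of the 3-way term became 11 with DESeq2, 56 without the filter and 4 with the replicate block, 0 to 41 without 1 library and 0 to 39 without a number. The cause was not tested. The difference in mean total counts (-202513) ran from -736665 to 331639 without 1 library, and its sign was reversed in 4 of these (69854, 331639, 116016 and 151190). Of 221 named genes, none that was called between the pairs changed the sign of its difference in any setting run. Genes not called were not checked for a change of sign. The replicate block ended none of 23 named interactions. Of these, 0 to 3 were lost without 1 library, and 0, 3, 9 and 5 without replicate 1, 2, 3 and 4.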

Other observations

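The genes of MHC class II, which present peptides to T cells and which Ciita controls, were looked at after their values were seen. H2-Aa was at a mean of 90.3 CPM in replicates 1 and 2 and 55.5 CPM in replicates 3 and 4 (-0.71, SE 0.10), H2-Ab1 at 148 and 94.6 CPM (-0.65, SE 0.06), and H2-DMb2, which edits the peptide load, at 12.9 and 7.47 CPM (-0.84, SE 0.12). Cd74, the invariant chain, was at 836 and 629 CPM (-0.41, SE 0.04). All 4 were lower in replicates 3 and 4 in each of the 4 groups.

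A pair of arrestin-family genes that respond to glucose, also chosen after their values were seen, differed between passages. The pair difference of Txnip was -0.10 and -0.53 at passage 4 without and with DOX and 0.91 and 1.39 at passage 7, and that of Arrdc4 was 0.14, 0.25, 0.90 and 1.03 in the same order (edgeR adjusted p = 3.7e-05 and 1.2e-05 for the difference between passages).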
